A study of Mus musculus with 6 samples.

Results

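Mitochondrial ribosomal protein genes were chosen by their symbols, Mrpl or Mrps followed by a number and at most 1 letter, which took 78 of the 49671 genes in the deposited tables, 49 Mrpl and 29 Mrps genes. Muscle stem cells (MuSCs, the Pax7-expressing precursors that rebuild skeletal muscle fibres) had been profiled by RNA sequencing at day 3 after injury in 6 female C57BL/6 mice aged 4 to 6 months. All mice received 50 µL of 1.2% BaCl2 into the tibialis anterior of both legs. Daily intraperitoneal doses were either 100 ng of resolvin D1 (RvD1, a lipid mediator derived from docosahexaenoic acid) in 3 mice or vehicle alone in 3 mice. Doses of both groups contained 0.1% ethanol, and the first was given shortly before the injury. The 2 muscles of a mouse were pooled, so each library stood for 1 mouse, and cells were sorted as negative for Sca-1, CD31, CD11b, Ter119 and CD45 and positive for β1-integrin and CXCR4 according to the sample records. The tables held expected counts and TPM (a level scaled for transcript length and for the library total) for each mouse, and the comparison was RvD1 against vehicle, with the 79 cytosolic ribosomal protein genes measured beside the mitochondrial set.

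The mitochondrial ribosome translates the few messenger RNAs encoded by mitochondrial DNA, all of which specify subunits of the oxidative phosphorylation complexes. Its ribosomal RNAs come from the mitochondrial genome, whereas every one of its proteins is encoded in the nucleus, made in the cytosol and imported. Some of these proteins have counterparts in the bacterial ribosome and others were gained in the mitochondrial lineage. MuSCs that leave quiescence after injury enlarge and increase their mitochondrial content before they divide. The 37 genes of the mitochondrial genome were listed at 0 counts in all libraries, so the ribosomal RNAs and the messages that these proteins serve were not measured.

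Library totals ran from 16148026 to 28149176 expected counts. All 78 Mrp genes passed the filter on low counts that left 14494 genes, and the smallest count of any of them in any library was 349, apart from Mrpl23 at 69.9. The MuSC and myoblast markers (9 genes, among them Pax7, Myod1 and Itga7) averaged 8.07 ± 0.13 log2 CPM (a count scaled to the library total, not to length; SD, n = 3) in the RvD1 group and 8.07 ± 0.11 (n = 3) in the vehicle group. Leukocyte markers summed to 44.2 to 65.9 TPM with RvD1 and 58.6 to 98.3 TPM with vehicle, 11 of 12 were tested, all 11 had lower estimates with RvD1, and none was at 0 in all libraries. Markers of fibro-adipogenic cells summed to 324 to 880 TPM with RvD1, with the highest value in replicate 1, and to 380 to 448 TPM with vehicle, and the endothelial markers to 3.59 to 8.08 and 3.37 to 10.7 TPM. The part of these cells in the results below was not tested.

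As a set, the 78 genes took 0.877% to 1.09% of all TPM. Summed TPM was 8732, 10126 and 10560 in RvD1 replicates 1 to 3 and 10131, 10484 and 10881 in vehicle replicates 1 to 3. RvD1 replicate 1 stood below the other 5 libraries, which lay close together in both groups. In bulk RNA a lower level in fewer cells and less RNA per cell cannot be told apart.

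**Figure D1:**
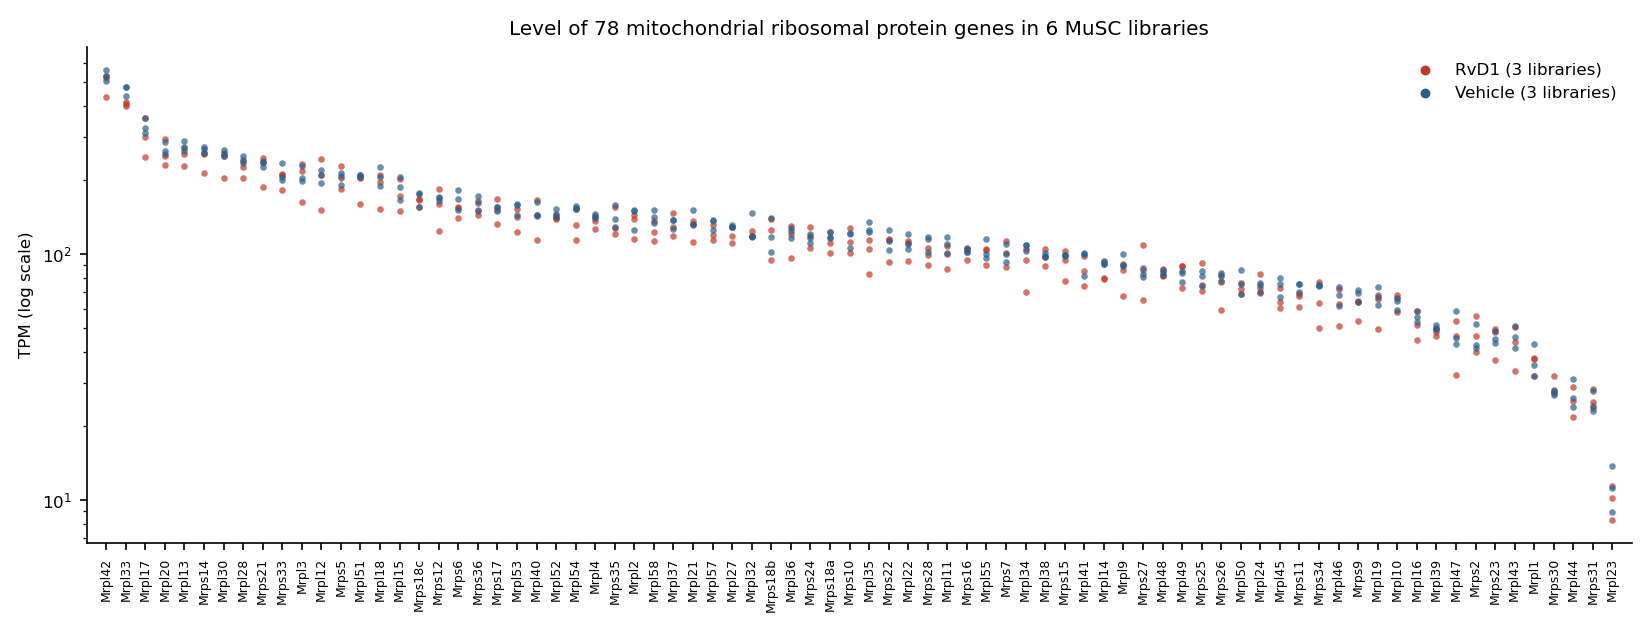
TPM (log scale) of each of the 78 Mrp genes, ordered by mean level, with 1 point per library (red, RvD1; blue, vehicle; 3 libraries each). Most genes lie near the median of 115 TPM, RvD1 replicate 1 is often the lowest point, and Mrpl23 stands apart at the low end.

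Levels of most Mrp genes, compared per transcript length in TPM, lay near the median of the set. The median gene stood at 115 TPM, 59 of the 78 were within 2-fold of it, and 47 exceeded 100 TPM. Mrpl42, a mitochondria-specific protein of the large subunit, had the highest level, with 437, 521 and 530 TPM in RvD1 mice and 505, 563 and 528 TPM in vehicle mice. Mrpl33, the counterpart of a small bacterial large-subunit protein, followed at a mean of 436 TPM over the 6 libraries. Mrpl17 (317 TPM), Mrpl20 (263 TPM), Mrpl13 (263 TPM) and Mrps14 (254 TPM), all with bacterial counterparts, came next. These 6 genes made up 20.2% of the summed Mrp TPM. At the other end were Mrps30 (28.2 TPM), Mrpl44 (26.1 TPM), whose protein carries a ribonuclease III-like fold, Mrps31 (25.3 TPM) and Mrpl23 (10.6 TPM). Mean levels therefore spanned 48.4-fold, or 20.3-fold when Mrpl23 was set aside.

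The order of levels was alike in all libraries, with Spearman coefficients of 0.969 to 0.991 over the 15 pairs of libraries (78 genes, which share libraries and are not independent). The coefficient of variation of a gene over the 6 libraries had a median of 9.43% and a highest value of 19.5%. Neighbours in the order were mostly not separable: in only 2 of the 77 neighbouring pairs did the 6 values of the higher gene all exceed the 6 values of the lower one. Median TPM was 122 for the 30 large-subunit proteins with bacterial counterparts, 98.1 for the 19 large-subunit proteins specific to mitochondria, 116 for the 16 small-subunit proteins with bacterial counterparts and 82.5 for the 10 specific to mitochondria. Cytosolic ribosomal protein genes had a median of 811 TPM, and their summed TPM exceeded that of the Mrp genes by 7.53, 7.03 and 5.96 times in RvD1 replicates 1 to 3 and by 6.91, 6.92 and 6.80 times in vehicle replicates 1 to 3. The vehicle ratios thus fell inside the range of the RvD1 ratios.

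Mrpl23, the lowest Mrp gene, was one for which many reads could not be assigned by sequence. The gene lies at chr7:142532686-142540747 on the + strand (mm10, as in GENCODE M21) and its protein, a large-subunit component with a bacterial counterpart, sits near the exit of the peptide tunnel. A processed pseudogene, Mrpl23-ps1, lies at chr2:74591330-74591909 on the - strand. Over 540 aligned bases the 2 transcripts had 0 mismatches, the whole coding sequence of 441 bases included. Of the 617 windows of 76 bases (the read length) in that Mrpl23 transcript, 465 (75.4%) occurred in the pseudogene. Over all protein-coding transcripts of Mrpl23 the share was 465 of 924 windows (50.3%). The first 76 bases of the coding sequence, with the start codon in capitals, show a stretch that a read would match equally well in either place:
Mrpl23: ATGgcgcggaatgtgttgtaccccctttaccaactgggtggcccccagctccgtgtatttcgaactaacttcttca
The expected counts of Mrpl23 were 73.8, 131 and 81.8 in RvD1 replicates 1 to 3 and 90.5, 69.9 and 91.9 in vehicle replicates 1 to 3. Those of the pseudogene were 1338, 1571 and 1015, and 959, 1096 and 1199, respectively. The pseudogene therefore received 91.4% to 94.8% of the shared total in every library. Taken as a sum, the pair stood at 188 to 211 TPM, with a mean of 202 TPM that would place 14th among the 78 genes instead of last, and the ranges of the groups overlapped. For Mrpl23 alone the log2 fold change with RvD1 was -0.22 (SE 0.24) and for the pseudogene -0.12 (SE 0.09), and neither passed the test.

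**Figure D2:**
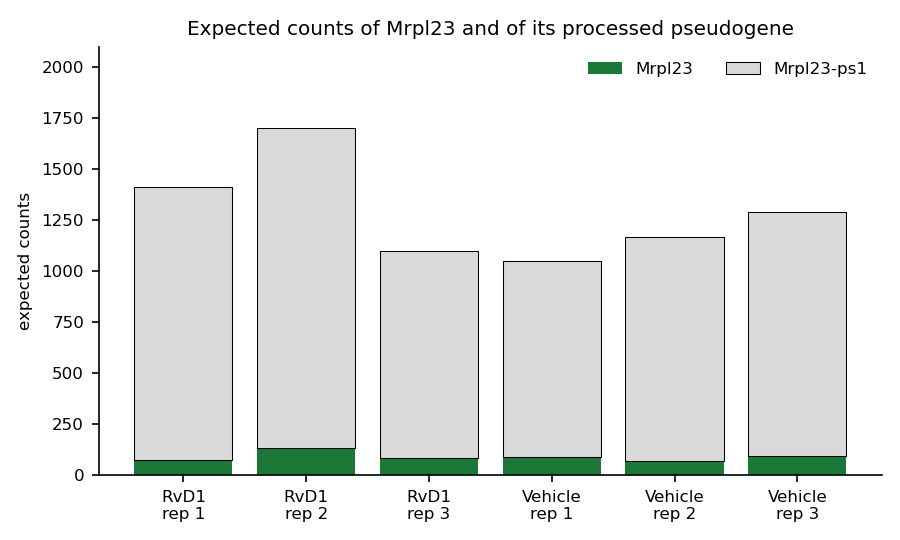
Expected counts given to Mrpl23 (green) and to its processed pseudogene Mrpl23-ps1 (grey, stacked on top) in each of the 6 libraries. The green part is 69.9 to 131 counts of totals between 1050 and 1702.

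Estimates for the Mrp genes with RvD1 were nearly all slightly below 0, RvD1 replicate 1 being the low library for most of them, and no single gene passed the test. Of the 78 genes, 77 had a negative log2 fold change, against 46.5% of all genes tested. The median was -0.17, a ratio of 0.889, with quartiles of -0.22 and -0.12 and a range from -0.35 (Mrpl35) to 0.01 (Mrps30), whereas the median of all genes tested was 0.01. By the quasi-likelihood test of edgeR, adjusted after Benjamini and Hochberg, 0 of the 78 reached an adjusted p of 0.05, the background being 0 of 14494 genes (0%), and the smallest adjusted p was 0.971. At an unadjusted p under 0.05 there were 4 Mrp genes, all lower, or 5.13%, beside 3.47% of all genes in either direction and 1.64% lower. DESeq2 and limma-voom also called 0, with 3 genes each at an unadjusted p under 0.05, beside 2.05% and 3.33% of the genes they tested. The study's own kind of procedure, limma-voom after removal of surrogate variables, called 0 with 1 variable removed. That number was the procedure's own estimate, whereas 2 was set here. With 2 removed the procedure called 9 of the 78 (11.5%), all lower, beside 6.51% of the 26518 genes that fit tested and 2.81% called lower. The test that followed did not count the removed variables, and 25.3% of all genes had an unadjusted p under 0.05 in it.

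**Figure D3:**
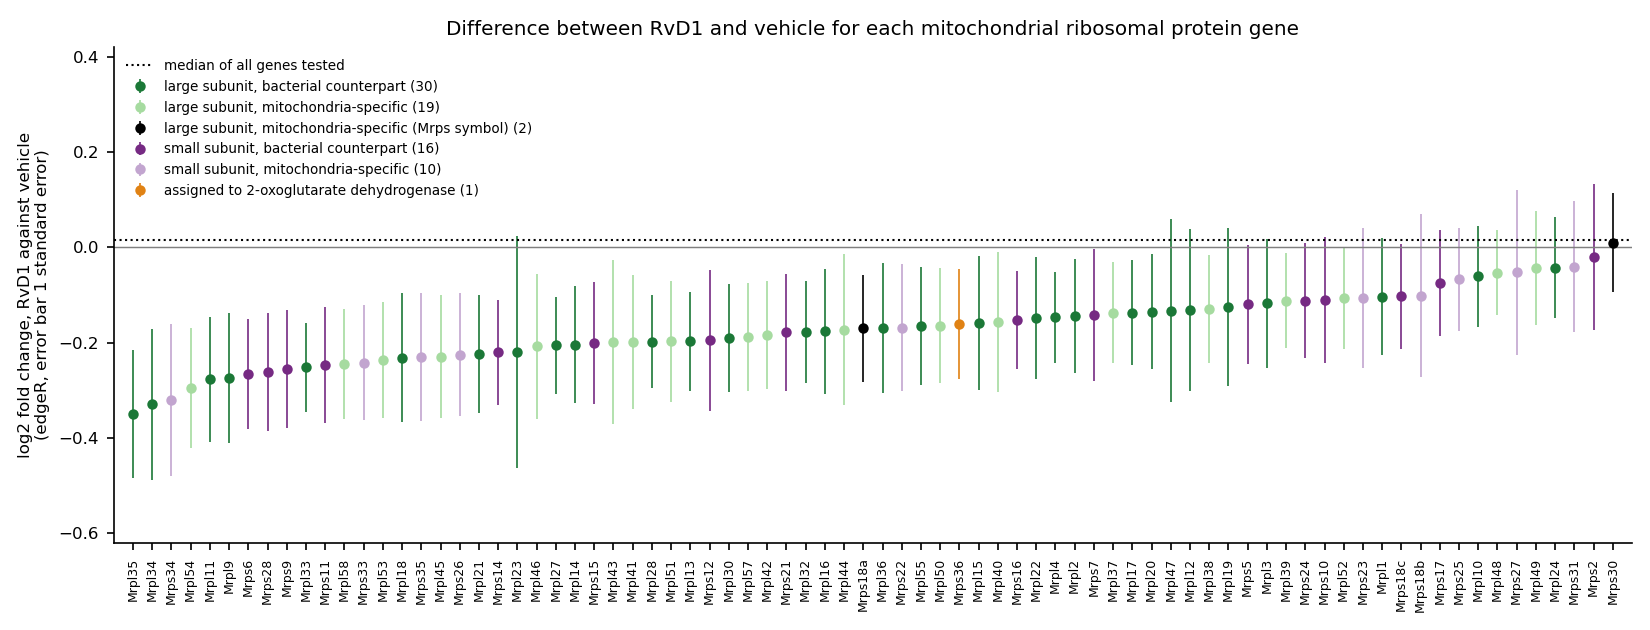
Log2 fold change (RvD1 against vehicle) of each Mrp gene with its standard error from edgeR, ordered by size and coloured by subunit and origin; the dotted line is the median of all genes tested. Of the 78 points, 77 lie below 0, the lowest at -0.35, and Mrps30 lies at 0.01. The median standard error is 0.12, beside a median difference of -0.17.

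The lower estimates were spread over both subunits. All 30 large-subunit genes with bacterial counterparts (median -0.17), all 19 mitochondria-specific large-subunit genes (-0.18), all 16 small-subunit genes with bacterial counterparts (-0.17) and all 10 mitochondria-specific small-subunit genes (-0.14) were below 0. The cytosolic ribosomal protein genes were lower by a similar amount: 76 of 79 were below 0, with a median of -0.20, 0 were called, and 27 had an unadjusted p under 0.05, all lower. All 3 RvD1 libraries lay below all 3 vehicle libraries for 16 Mrp genes (20.5%) and 32 cytosolic genes (40.5%), beside 4.83% of all genes tested, and above them for none of either set.

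The 2 ribosomal sets differed in which libraries were low. Averaged over genes as the deviation in log2 CPM from each gene's mean, the Mrp set stood at -0.30, 0.01 and 0.02 in RvD1 replicates 1 to 3 and at -0.003, 0.09 and 0.18 in vehicle replicates 1 to 3. The cytosolic set stood at -0.17, 0.05 and -0.19, and at 0.01, 0.13 and 0.16. For the Mrp genes a single mouse of the RvD1 group was low and the other two lay within the range of the vehicle mice, whereas for the cytosolic genes RvD1 replicates 1 and 3 were both low. RvD1 replicate 1 was the lowest of the 6 libraries for 72 of the 78 Mrp genes, beside 29.5% of all genes tested, and for 42 of the 79 cytosolic genes, with another 35 lowest in RvD1 replicate 3. At the upper end vehicle replicate 3 was the highest library for 47 Mrp genes and vehicle replicate 2 for 22, beside 17.9% and 11.1% of all genes tested. The counts for the cytosolic genes were 47 and 22 as well. As group means, Mrp genes had 5.85 ± 0.18 log2 CPM (SD, n = 3) with RvD1 and 6.02 ± 0.09 (n = 3) with vehicle.

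**Figure D4:**
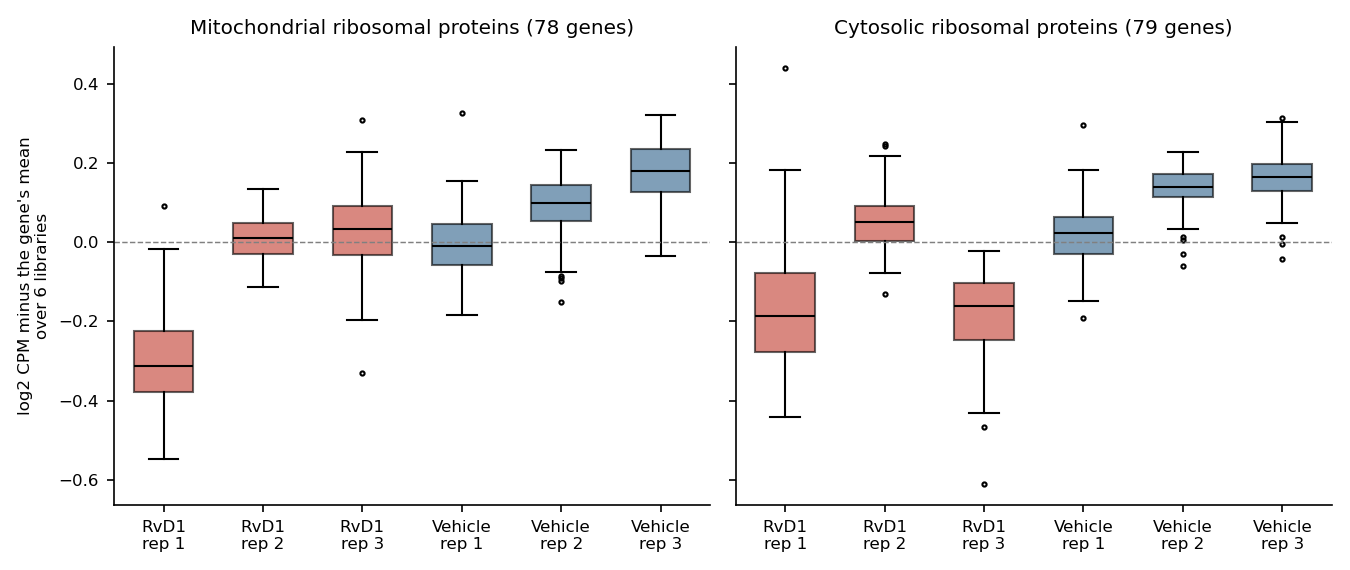
Deviation of log2 CPM from each gene's mean over the 6 libraries, as boxes (median and quartiles, whiskers to 1.5 times the box height, circles beyond) over the 78 Mrp genes (left) and 79 cytosolic ribosomal protein genes (right), for each library (red, RvD1; blue, vehicle). RvD1 replicate 1 is low in both panels, and RvD1 replicate 3 is low on the right and near 0 on the left.

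Without RvD1 replicate 1 the Mrp median was -0.08 and 64 of the 78 genes remained below 0, beside 49.7% of all genes tested, while the cytosolic median was -0.17 with 77 of 79 below 0. Proliferation markers (10 genes, including Mki67 and Top2a) were low in the same library: their mean deviation was -0.39 in RvD1 replicate 1 and between 0.01 and 0.14 in the other 5, and 10 of 10 had lower estimates with RvD1, with group means of 7.97 ± 0.29 and 8.11 ± 0.06 log2 CPM (SD, n = 3 each). The part of these markers in the lower Mrp values was not tested.

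Differences between the groups also went with transcript length, and Mrp transcripts are short. Their effective length, the length open to a read, had a median of 835 bases with quartiles of 681 and 1224, against 2296 bases for all genes tested and 567 for the cytosolic ribosomal genes, and 76 of the 78 were below the median of all genes. Among all genes tested outside the 2 ribosomal sets, the median log2 fold change went from -0.12 in the shortest decile to 0.11 in the longest, and the share below 0 from 68.9% to 24.0%. The 39 Mrp genes in the shortest decile had a median of -0.20 and the 19 in the next decile -0.17, where the other genes stood at -0.12 and -0.08. The 1844 other genes within the quartiles of Mrp length had a median of -0.08, with 67.0% below 0. Of these genes, 10.2% had all RvD1 libraries below all vehicle libraries. The Mrp median of -0.17 was thus lower than that of transcripts of like length. The 1844 genes were not matched on level, with a median of 25.7 TPM beside 115 TPM for the Mrp genes.

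**Figure D5:**
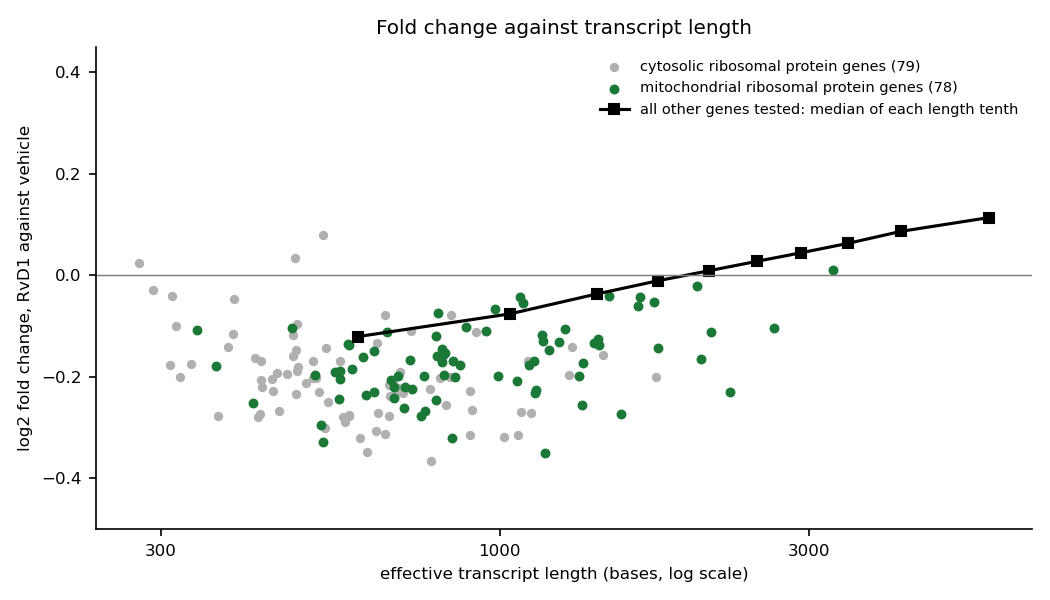
Log2 fold change (RvD1 against vehicle) against effective transcript length in bases (log scale) for the 78 Mrp genes (green) and 79 cytosolic ribosomal protein genes (grey), with the median of each decile of length over the other genes tested (black squares). The black line runs from -0.12 to 0.11, and most green points lie at its short end and below it.

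Across the 6011 genes with more than 5 log2 CPM the Spearman coefficient of fold change with length was 0.56, and within the 78 Mrp genes it was 0.38; genes of a library share its length bias, and these values are descriptions. The dependence on length came from several libraries, with coefficients between the deviation in a library and length of 0.29, 0.13 and 0.15 in RvD1 replicates 1 to 3 and 0.05, -0.52 and -0.42 in vehicle replicates 1 to 3. When the trend with length was removed in each library, an alternative added after the data had been seen, the Mrp median was -0.08 with 71 of 78 below 0 (49.9% of all genes), and the cytosolic median was -0.09 with 65 of 79 below 0. Removal of the trend together with RvD1 replicate 1 left a Mrp median of -0.000845 with 40 of 78 genes below 0, beside 50.3% of all genes, and a cytosolic median of -0.06 with 64 of 79 below 0. The offset also removes any difference that short genes share as a class, and a length trend and such a difference cannot be told apart.

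Among single genes, the smallest p-values belonged to proteins of both subunits. Mrpl33 (chr5:31596935-31664384, + strand, mm10) had 98.3, 109 and 102 CPM in RvD1 mice and 112, 127 and 128 CPM in vehicle mice. All RvD1 values were below all vehicle values, with a log2 fold change of -0.25 (SE 0.09, unadjusted p = 0.0253). This gene differed from most in that RvD1 replicate 1 lay near its group, and the estimate was -0.31 to -0.22 when any 1 library was left out. For this short transcript (417 bases of effective length) the length offset gave -0.11, and the offset without RvD1 replicate 1 gave -0.07. Mrpl35 (chr6:71812997-71826969, - strand), a large-subunit protein with a bacterial counterpart, had 58.5, 79.0 and 82.0 CPM with RvD1 and 88.8, 92.3 and 98.8 CPM with vehicle. The groups did not overlap, but replicate 1 was far below the other RvD1 mice, and the log2 fold change of -0.35 (SE 0.13, unadjusted p = 0.0290) ranged from -0.44 to -0.21 when 1 library was left out, the latter without RvD1 replicate 1.

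Mrpl54 (chr10:81264713-81266934, - strand), a mitochondria-specific large-subunit protein, had 35.7, 43.4 and 48.5 CPM with RvD1 and 51.3, 52.9 and 52.5 CPM with vehicle. The vehicle mice were within a narrow range above all RvD1 mice, and the log2 fold change was -0.30 (SE 0.13, unadjusted p = 0.0436), or -0.18 without RvD1 replicate 1 and -0.16 with the length offset. Mrps6 (chr16:92058270-92112227, + strand), a small-subunit protein with a bacterial counterpart, had 63.2, 73.5 and 68.3 CPM with RvD1 and 71.7, 83.7 and 91.2 CPM with vehicle. Its groups overlapped, with a log2 fold change of -0.27 (SE 0.12, unadjusted p = 0.0478), and of -0.16 with the length offset, and 30.0% of the read-length windows in its transcripts also occurred in the neighbouring gene models Slc5a3 or Gm49711. Mrpl58 (chr11:115403752-115412674, + strand) encodes a peptidyl-tRNA hydrolase built into the large subunit, which can release stalled chains. It had 37.9, 44.4 and 46.6 CPM with RvD1 and 49.1, 48.6 and 54.9 CPM with vehicle, without overlap, and a log2 fold change of -0.24 (SE 0.12, unadjusted p = 0.0638), or -0.16 without RvD1 replicate 1 and -0.11 with the length offset.

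The only Mrp gene with a positive estimate was Mrps30, which despite its symbol encodes a protein of the large subunit. It had 52.7, 56.7 and 62.6 CPM with RvD1 and 54.0, 57.5 and 59.2 CPM with vehicle, with the vehicle values inside the RvD1 range and a log2 fold change of 0.01 (SE 0.10), which was -0.06 without RvD1 replicate 3, the highest library. Mrpl12, the stalk protein that also binds the mitochondrial RNA polymerase, had 109, 161 and 180 CPM with RvD1 and 149, 168 and 176 CPM with vehicle. RvD1 mice lay at both ends of that order, and the log2 fold change of -0.13 (SE 0.17) was smaller than its error. Mrps12, a protein of the decoding centre, had 37.8, 52.4 and 56.6 CPM with RvD1 and 56.1, 54.5 and 57.4 CPM with vehicle. RvD1 replicate 1 was far below the rest, and the estimate was -0.20 (SE 0.15).

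The paralogs Mrps18a, Mrps18b and Mrps18c descend from a single bacterial small-subunit protein and occupy different places, Mrps18a in the large subunit and the other two in the small. Mean levels were 115 TPM for Mrps18a, 120 TPM for Mrps18b and 166 TPM for Mrps18c, and every library gave Mrps18c more TPM than Mrps18a or Mrps18b. The log2 fold changes were -0.17 (SE 0.11), -0.10 (SE 0.17) and -0.10 (SE 0.11), with overlapping groups for each. No window of read length was shared between these paralogs. Mrps36, which is assigned to the 2-oxoglutarate dehydrogenase complex in spite of its name, stood at 157 TPM with a log2 fold change of -0.16 (SE 0.12). Among the other most abundant members, after Mrpl33, Mrpl42 had a log2 fold change of -0.18 (SE 0.11), Mrpl17 -0.14 (SE 0.11), Mrpl20 -0.14 (SE 0.12), Mrpl13 -0.20 (SE 0.10) and Mrps14 -0.22 (SE 0.11), and of these 5 only Mrps14 had groups that did not overlap.

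Mitochondrial ribosomal proteins whose symbols do not start with Mrp had like values. All 5 were lower with a median log2 fold change of -0.18, and all 5 were lowest in RvD1 replicate 1. Chchd1 had 58.0, 76.1 and 68.7 CPM with RvD1 and 73.5, 77.9 and 88.8 CPM with vehicle (log2 fold change -0.24, SE 0.13). Its estimate was -0.14 without RvD1 replicate 1, -0.16 without vehicle replicate 3 and -0.11 with the length offset. The GTP-binding small-subunit protein Dap3 stood at -0.13 (SE 0.11), the RNA-binding protein Ptcd3 at -0.08 (SE 0.13), Aurkaip1 at -0.18 (SE 0.11) and the large-subunit protein Gadd45gip1 at -0.19 (SE 0.12).

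The factors that build and serve the mitochondrial ribosome had smaller medians, and 0 were called in any of these lists. RvD1 replicate 1 lay below the gene means in each list. Its mean deviation was -0.27 for assembly factors, -0.19 for translation factors, -0.17 for charging enzymes and -0.07 for regulators of mitochondrial DNA. The Mrp genes stood at -0.30 there. Replicate 1 was the lowest library for 20 of 26, 8 of 14, 12 of 21 and 6 of 16 genes, beside 29.5% of all genes tested. Transcripts of these lists were longer than those of the Mrp genes, whose median effective length was 835 bases. Medians were 1576 bases for assembly factors, 1820 for translation factors, 1897 for charging enzymes and 2304 for regulators of mitochondrial DNA. The part of length in the smaller medians was not tested. Among 26 assembly and rRNA-modifying factors, 20 were below 0 with a median log2 fold change of -0.07, from Mrm2, an rRNA methyltransferase (-0.49, SE 0.28), to Dhx30, an RNA helicase (0.11, SE 0.12). Among 14 translation factors, 12 were below 0 with a median of -0.12, and the initiation factor Mtif2 (-0.17, SE 0.11) and the release factor Mtrf1l (0.17, SE 0.15) had the smallest p in each direction. Among 21 aminoacyl-tRNA synthetases and charging enzymes, 14 were below 0 with a median of -0.05. The leucyl-tRNA synthetase Lars2 was the 1 gene of this list (4.76%, beside 3.47% of all genes tested) with an unadjusted p under 0.05. It had 1481, 1694 and 1567 CPM with RvD1 and 1944, 1973 and 2006 CPM with vehicle (-0.32, SE 0.09, edgeR unadjusted p = 0.0046). The median gene of the list stood at only 21.1 TPM, and sequence that Lars2 may share with other genes was not searched. Pars2, of the same list, had the smallest p above 0 (0.52, SE 0.37). Regulators of mitochondrial DNA transcription and replication showed no shared direction, with 7 of 16 below 0 and a median of 0.02, and Ssbp1 at -0.15 (SE 0.10) and the coactivator Pprc1 at 0.14 (SE 0.11) had the smallest p on either side. Several of these estimates moved when 1 library was left out, to a range of -0.70 to -0.25 for Mrm2, -0.02 to 0.21 for Dhx30, 0.04 to 0.23 for Mtrf1l, 0.27 to 0.79 for Pars2, -0.20 to -0.09 for Ssbp1 and 0.06 to 0.24 for Pprc1. The Mrm2 estimate nearest 0 was the one without RvD1 replicate 1. The cytosolic ribosomal genes of the small and the large subunit with the smallest p below 0 were Rps20 at -0.37 (SE 0.10) and Rpl27a at -0.32 (SE 0.10).

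Many Mrp genes start close to the start of a neighbour that is read in the opposite direction. The annotated start of 33 of the 78 (42.3%) lay within 1000 bases of the start of a protein-coding gene on the other strand, against 2384 of 22015 protein-coding genes (10.8%; GENCODE M21). One such pair joined Mrp genes to each other, Mrpl46 and Mrps11, with log2 fold changes of -0.21 and -0.25. In some pairs, Mrpl46 and Mrps11 among them, the genes overlapped at their starts, so no bases lay between them. Whether paired genes share a promoter was not tested. The partners that were not Mrp genes and were tested, 28 in all, had a median log2 fold change of -0.06 with 18 below 0. The Mrp genes in such pairs had a median of -0.18 with 32 of 33 below 0. Median effective length was 2363 bases for these partners and 847 bases for the Mrp genes in pairs. The part of length in this contrast was not tested. Psma2, a proteasome subunit opposite Mrpl32 (-0.18), stood at -0.21, and Ndufs6, a complex I subunit opposite Mrpl36 (-0.17), at -0.25, whereas Gga3 opposite Mrps7 (-0.14) stood at 0.30 and Eme1 opposite Mrpl27 (-0.21) at 0.29. Levels in some pairs were unequal as well, with 162 TPM for Mrps12 and 24.9 TPM for Sars2, and 83.1 TPM for Mrpl49 and 674 TPM for Fau. In others they were close, with 64.9 TPM for Mrpl46 and 69.9 TPM for Mrps11.

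The bases between the starts of 3 pairs are shown because both genes of each encode parts of a translation or RNA-processing system. Sequences are from RefSeq (GRCm38.p6), read 5′ to 3′ toward the Mrp gene. Capitals mark CCAAT, the box bound by NF-Y, and ACTTCCGG, the reverse complement of the ETS-family string CCGGAAGT. Mrps12 and Sars2, the mitochondrial seryl-tRNA synthetase, are 172 bases apart (chr7:28741821-28741991, - strand). Mrpl49 and Fau, which encodes a cytosolic small-subunit protein, are 59 bases apart (chr19:6057786-6057843, - strand). Mrps27 and Ptcd2, a mitochondrial RNA-binding protein, are 81 bases apart (chr13:99344706-99344785, + strand):
Mrps12-Sars2: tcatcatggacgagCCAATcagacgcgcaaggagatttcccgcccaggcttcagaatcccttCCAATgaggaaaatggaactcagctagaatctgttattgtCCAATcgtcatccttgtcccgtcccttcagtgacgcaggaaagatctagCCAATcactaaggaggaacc
Mrpl49-Fau: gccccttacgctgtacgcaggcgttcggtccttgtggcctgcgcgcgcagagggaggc
Mrps27-Ptcd2: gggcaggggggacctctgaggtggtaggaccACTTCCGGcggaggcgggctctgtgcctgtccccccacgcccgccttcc
The first stretch held 4 CCAAT boxes, the second none of the strings searched and the third 1 ETS string. The fold changes were -0.20 and -0.15 for Mrps12 and Sars2, -0.04 and -0.21 for Mrpl49 and Fau, and -0.05 and -0.14 for Mrps27 and Ptcd2. None of these differences passed the test.

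Promoters of the Mrp genes were searched for strings of factors known to act on genes for mitochondrial proteins. RefSeq promoters, 250 bases before to 50 after each start, were matched for 69 of the 78 Mrp genes, for 58 cytosolic ribosomal genes and for 27025 genes in all, and both strands were read. The NRF1 string, the palindrome in capitals in the first 3 lines printed below, occurred in 3 Mrp promoters (4.35%), beside 3.45% of cytosolic ribosomal promoters and 1.07% of all. CCGGAAGT, the ETS string that GABPA binds, occurred in 12 (17.4%, beside 19.0% and 4.31%), and the YY1 string, in capitals in the last of those lines, in 5 (7.25%, beside 3.45% and 0.995%). At least 1 of these strings was present in 27.5% of Mrp promoters, 25.9% of cytosolic ribosomal promoters and 6.15% of all promoters. TATAAA, the TATA box, occurred in 7.25%, 10.3% and 15.7%, and CCAAT, which was added after the Mrps12 sequence had been seen, in 39.1%, 31.0% and 41.1%. None of these strings contains another, and a match is a description of letters and not of binding.

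The 3 promoters with the NRF1 string, and the ETS and YY1 strings of the genes with the smallest p-values, are shown with the string in capitals (GRCm38.p6, strand of the gene). They lie at chr3:94443298-94443327 (+) for Mrpl9, chr13:14613105-14613134 (-) for Mrpl32, chr16:84735350-84735379 (-) for Mrpl39, chr5:31613938-31613965 (+) for Mrpl33 and chr6:71823742-71823771 (-) for Mrpl35:
Mrpl9 NRF1: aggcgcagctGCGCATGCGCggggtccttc
Mrpl32 NRF1: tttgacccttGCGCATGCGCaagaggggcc
Mrpl39 NRF1: aaggagaggcGCGCATGCGCccccgcgtgg
Mrpl33 ETS: cgcgcatgccCCGGAAGTagtcgttgag
Mrpl35 YY1: ggcaggctgcAAGATGGCGGcttccatctt
The YY1 string of Mrpl35 began 24 bases after the start, within the transcript. The log2 fold changes of the genes with the NRF1 string were -0.27 (SE 0.14) for Mrpl9, -0.18 (SE 0.11) for Mrpl32 and -0.11 (SE 0.10) for Mrpl39, within the range of the other Mrp genes.

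Sharing of sequence with other annotated genes limited several Mrp values besides that of Mrpl23. Of the 78 genes, 37 had no window of 76 bases in common with another gene, 41 had at least 1, and for 22 more than 10% of windows were shared. All windows of Mrpl53 were also part of the gene model Gm42688, 72.9% of those of Mrps25 occurred in Nr2c2 or Gm42933, 50.9% of those of Mrps34 in Mapk8ip3, 49.6% of those of Mrps18b in Gm16279 or Gm13552, and 39.5% of those of Mrpl19 in Gcfc2, Tbck or Nepro. Mrpl33 shared 25.8% of its windows with Gm43809. In addition, exons of 28 Mrp genes overlapped an exon on the opposite strand and those of 8 an exon on the same strand, and the library kit does not mark strand, so reads from such stretches cannot be told apart. Mrpl53 (-0.24, SE 0.12) and Mrps34 (-0.32, SE 0.16) are therefore uncertain as to which gene the value belongs to.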

How the data were processed

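Members, lists and tests were chosen with earlier results of these data known. The authors prepared libraries with SMART-Seq v4, read 76-base single ends, aligned them with STAR 2.5.0a to mm10 and quantified genes with RSEM. They deposited expected counts, TPM and FPKM per library for 49671 genes, after removal here of 1 stray header line. The deposited FPKM served only, with the counts, to recover each gene's effective length. Expected counts were rounded, filtered (filterByExpr), scaled by TMM and tested with the quasi-likelihood test of edgeR 4.0.16, with p-values adjusted by the Benjamini-Hochberg method over 14494 genes and a threshold of 0.05; CPM is TMM-scaled and log2 CPM used a prior count of 2. The study's limma-voom procedure with surrogate variables (sva 3.50.0), DESeq2 1.42.0, log2(TPM + 1), a replicate block, other filters and factors, and leaving out each library were alternatives. Replicates were separate mice. Named genes were the 5 Mrp genes with the smallest p in each direction, the 6 highest and 4 lowest in TPM, members with known special roles, and the smallest p in each direction of each list; 1 of the latter is not reported here. Partners, overlaps and sequence strings were named after their values were seen. The fit was tested on simulated counts with 200 genes changed 4-fold, of which edgeR recovered 173, with 16 false calls. Differences as small as those of the Mrp genes were not simulated. Red cell markers were at 5.12 to 50.6 TPM.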

Additional observations from a re-analysis of the deposited data

How the results depend on the processing

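The median Mrp log2 fold change stayed below 0 in all 20 alternatives, and 0 Mrp genes were called in 19 of them. The exception was removal of 2 surrogate variables, a number set here, while the procedure itself chose 1. That fit called 9 of 78 (11.5%), all lower (Mrpl27, Mrpl34, Mrpl35, Mrpl45, Mrpl54, Mrpl9, Mrps14, Mrps26 and Mrps34). Beside these it called 1727 of the 26518 genes it tested (6.51%, with 2.81% lower), among them 31 cytosolic ribosomal genes. With a length offset and without RvD1 replicate 1, the Mrp median was -0.000845 with 40 genes below 0, and the cytosolic median -0.059. Leaving out 1 library at a time gave Mrp medians of -0.24 to -0.08, 64 to 78 genes below 0 and 0 calls. Cytosolic medians were -0.29 to -0.17, and the difference between the medians was -0.06 to 0.09. At an unadjusted p under 0.05 there were 0 Mrp genes without vehicle replicate 2 or 3, beside 1.90% of all genes in either fit. Without RvD1 replicate 2 there were 9 (11.5%), the most of these fits, beside 6.83% of all genes. The replicate block gave a Mrp median of -0.17, 0 calls and 18 Mrp genes (23.1%) at an unadjusted p under 0.05, against 4 without it, while all genes went from 3.47% to 6.18%. Deviations from the group means had correlations of 0.31, -0.0007 and 0.13 between same-numbered mice, and of -0.25 to 0.17 between mice of unlike number. The numbers were not taken as pairs, and whether they mark a shared batch was not tested. With library totals alone 76 Mrp genes were below 0 beside 39.0% of all genes, and on log2(TPM + 1) 69 beside 32.1%. With 1 surrogate variable 19 Mrp genes (24.4%) had an unadjusted p under 0.05, beside 11.2% of all genes in that fit.

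Signs turned for Mtif2 (0.0195 and 0.0200 on the TPM scales), Mrps30 (-0.058 to 0.067 when 1 library was left out, -0.0274 without vehicle replicate 1, and -0.045 with the length offset) and Dhx30 (-0.019 to 0.205 when 1 library was left out), and the cause was not tested. The median standard error of a Mrp log2 fold change was 0.12, beside the median difference of -0.17.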
